A study of Mus musculus with 8 samples.

Results

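The 47 genes described here encode proteins that copy DNA or repair it: the MCM helicase and its loader, the sliding clamp and its loader, DNA ligases, the break sensors, homologous recombination factors, checkpoint kinases, Fanconi anemia proteins and excision repair factors. The genes were taken by name from a list, and each was matched to its Ensembl identifier by location and strand in mm10. At least 1 of the 2 deposited lists of N6-methyladenosine (m6A) peaks held a peak for 46 of the 47. Together the lists covered 13110 identifiers. Rfc3, a clamp loader subunit, had no peak in either list.

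The cells were feeder-free mouse embryonic stem cells that carry a doxycycline (Dox)-inducible knockdown of Setd2. All groups carried the construct and grew as spheres in serum-free N2B27 medium with the MEK inhibitor PD0325901 at 1 µM, the GSK3 inhibitor CHIR99021 at 3 µM and leukemia inhibitory factor at 1000 U/ml. The Dox groups received 1 µg/ml for 4 days and the control groups none. Neither the knockdown sequence nor the number of clones is given in the labels, and cells that received Dox without carrying the construct are not among the samples, so Dox and the knockdown cannot be told apart. The 8 libraries were input RNA and RNA pulled down by an antibody to m6A (IP) from each condition, in 2 replicates. Each deposited list was called by the authors on the 4 libraries of a condition together, so there is no replicate spread and no difference between the conditions could be tested. Read depth is unknown.

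m6A, the methylation of adenosine inside mRNA, is written co-transcriptionally by the METTL3-METTL14 complex, within a short consensus around the sequence AC, and is enriched near stop codons and in long internal exons. It is read by YTH proteins, which influence splicing, export, translation and decay of the transcript. SETD2 is the histone methyltransferase that makes H3K36me3 over transcribed gene bodies, and that mark is known in repair: it supports resection of double-strand breaks through the CtIP protein, the product of Rbbp8, and it is bound by the mismatch repair protein MSH6. The knockdown design asks whether m6A depends on SETD2. H3K36me3, DNA damage and transcript levels were not analysed here.

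Nearly all replication and repair genes that had m6A peaks had them in both lists, and their stronger peaks mostly overlapped. The control list held 119 peaks on 42 of the 47 genes, and the Dox list 145 peaks on 46. All 42 genes with control peaks also had Dox peaks, whereas over all identifiers 10.0% of those with a control peak had none in Dox. Peaks in the Dox list alone were found for 4 genes, 4 of the 46 with a Dox peak, beside 12.2% over all identifiers. These were Rbbp8, Atr, Wrn and Chek2. The Dox list held more peaks for 22 genes, the control list for 7, and the numbers were equal for 18, among them Rfc3 with none. The whole Dox list was also the larger, with 27612 peaks beside 25815 in control. How many of all identifiers had more peaks in Dox was not counted, so nothing is read from these numbers. In exonic length the control peaks covered 35967 nt and the Dox peaks 47505 nt, of which 31619 nt were shared. The shared length was 87.9% of the control and 66.6% of the Dox length. These shares of length were not taken over the whole lists.

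A peak was said to have a counterpart when its exonic blocks shared at least 1 nt with a peak of the other list on the same strand. Of the 119 control peaks 12 had no counterpart (10.1%, exact 95% Clopper-Pearson interval 5.32% to 17.0%), beside 19.3% of all control peaks. Of the 145 Dox peaks 40 had none (27.6%, 20.5% to 35.6%), beside 29.1% of all Dox peaks. The Dox share was thus close to that of the whole list, and the control share below it. These shares depended on the limits set: at a fold of at least 4 in both lists 44.1% of the control peaks had no counterpart (31.2% to 57.6%), beside 45.7% of all control peaks, and 26.7% of the Dox peaks had none (14.6% to 41.9%), beside 31.6% of all Dox peaks. The control share was then the higher one, as it was over the whole lists. In the authors' stricter lists the shares were 16.7% in control (9.64% to 26.0%), beside 24.0% of all, and 16.1% in Dox (9.09% to 25.5%), beside 22.3%. Intervals describe counting error alone and treat peaks as independent, which peaks of 1 gene are not.

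**Figure D1:**
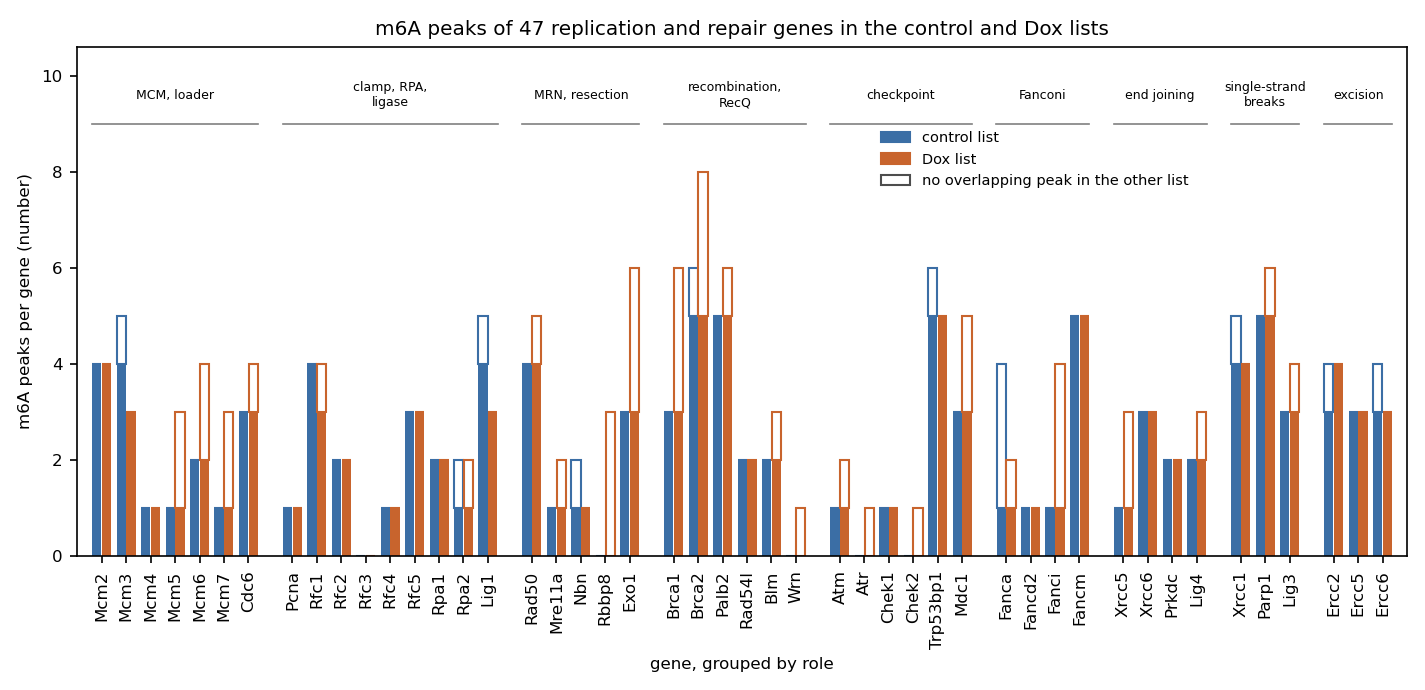
Number of m6A peaks per gene (vertical axis) for the 47 genes grouped by role, with the control list in blue and the Dox list in orange. Open parts of bars are peaks that overlap no peak of the other list; Brca2 has the tallest bars, with 6 control and 8 Dox peaks, and Rfc3 has none.

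Whether a peak had a counterpart went with its strength, measured by the log10 of the authors' false discovery rate (FDR) for that peak. Below, peaks with a log10 FDR above -5 are called weak. Among weak control peaks of these genes, 7 of 28 (25.0%, 10.7% to 44.9%) had no counterpart, beside 40.4% of all weak control peaks. At -5 or less, 5 of 91 had none (5.49%, 1.81% to 12.4%), beside 7.56% over the list. Weak Dox peaks had no counterpart in 26 of 47 cases (55.3%, 40.1% to 69.8%), beside 52.1% overall. For Dox peaks at -5 or less the count was 14 of 98 (14.3%, 8.04% to 22.8%), beside 11.6%. At -20 or less no control peak of 53 lacked a counterpart (upper limit 6.72%), beside 1.36% of all control peaks, and 3 Dox peaks of 53 did (5.66%, 1.18% to 15.7%), beside 2.80% of all Dox peaks. Each of these intervals covered the share of all peaks of the same strength in its list. The interval for the 119 control peaks of all strengths did not reach the 19.3% of the whole list.

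**Figure D2:**
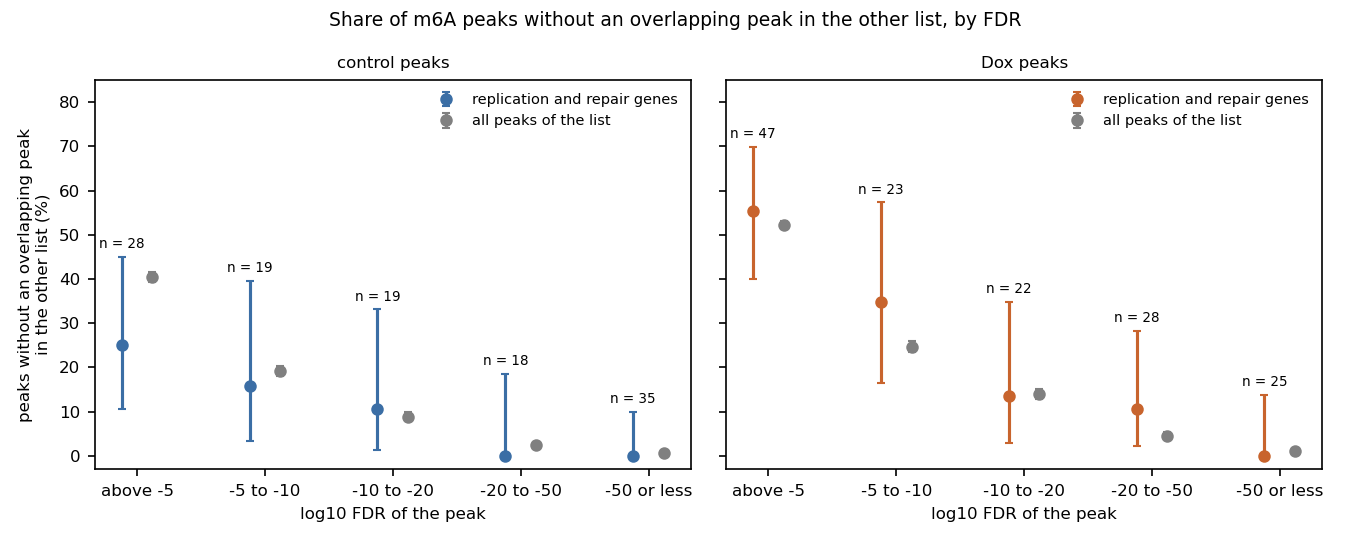
Percentage of peaks that overlap none of the other list (vertical axis) in classes of log10 FDR, for the replication and repair genes (coloured) and all peaks (grey). Bars are exact 95% intervals for counting error; no control peak of these genes at -20 or less, and 3 Dox peaks, lacked a counterpart.

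The MCM2 to MCM7 proteins form the ring of the replicative helicase, and CDC6 helps to load it onto origins. All 7 of these genes had peaks in both lists, with 17 control and 22 Dox peaks. A single control peak of the group lacked a counterpart (5.88%, 0.149% to 28.7%), beside 19.3% of all control peaks. Of the Dox peaks 7 did (31.8%, 13.9% to 54.9%), beside 29.1% of all Dox peaks. Mcm2 had 4 peaks in each list, and all of them overlapped. From the 5′ end on, their folds of IP over input, which are the authors' values for single peaks, were 5.48, 6.51, 1.32 and 2.02 in control and 3.17, 3.76, 1.59 and 1.51 in Dox. How these folds were scaled is unknown and each list was made separately, so folds of the 2 lists are set side by side and no change is read from them. Mcm4 had 1 peak near its 5′ end in each list, with folds of 3.92 and 2.35.

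Mcm3 (ENSMUSG00000041859.10, minus strand, chr1:20802966-20820312) held the strongest control peak of the 47 genes without a counterpart. This peak, at chr1:20817879-20820312, had its midpoint 104 nt into the gene, and it reached a fold of 6.15 at a log10 FDR of -13.7. The nearest Dox peak lay 5776 nt away. The other 4 control peaks of Mcm3 had folds of 1.67, 5.74, 8.54 and 2.81 and all overlapped Dox peaks. In Dox the gene had 3 peaks, with folds of 1.23, 5.86 and 6.64. The last of them spanned the final 2 control peaks, 8.54 and 2.81, so the smaller number of Dox peaks was partly a fusion.

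Mcm5, Mcm6 and Mcm7 each had 2 Dox peaks with no control peak beneath them. In Mcm5 (plus strand, chr8:75109468-75128439) a peak that began near the 5′ end, made of 5 exonic blocks, was found in both lists with folds of 3.79 and 2.8 and log10 FDRs of -280 and -224. Further along, Dox peaks of folds 1.33 and 1.9 stood alone with log10 FDRs of -13.1 and -34.5. The latter, at chr8:75127309-75127576, was the strongest Dox peak of all 47 genes without a counterpart, and its fold lay at percentile 10.5 of the Dox list. In Mcm6 (minus strand, chr1:128331575-128359705) the 5′ end peak reached a fold of 7.41 (log10 FDR -103) in control and 1.71 (-5.32) in Dox. The 3′ end peak had folds of 3.95 and 3.37, and Dox peaks of 1.35 and 1.42 lay between the ends at log10 FDRs of -8.41 and -9.25. In Mcm7 the peak in both lists had folds of 2.66 and 2.48, and Dox peaks of 4.34 and 1.19 stood alone at log10 FDRs of -1.85 and -4.9. Each of these single Dox peaks was of low fold or weak. Cdc6 had control peaks of 1.43, 1.8 and 2.46 and Dox peaks of 2.26, 1.82, 1.81 and 2.07, of which that of 1.81 had no counterpart.

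The sequence at the start of Mcm3 and of Mcm5 is shown as an example. Both genes carried a peak that reached into the first exonic bases, and of these peaks only that of Mcm5 had a counterpart. The stretches lie within the peaks and within the first 50 transcribed bases of the RefSeq promoter windows (GRCm38.p6, the mm10 build), at chr1:20820279-20820308 on the minus strand and chr8:75109528-75109557 on the plus strand. Capitals mark the m6A consensus pentamer, which is A, G or T, then A or G, then AC, then A, C or T, searched on the transcribed strand.
Mcm3: ccatAAACTtccgtggcgggaAAACTtggg
Mcm5: agAGACCgcggtGGACAaacgcggaggctg
Both stretches held 2 pentamers, and stretches were taken only from peaks with a pentamer in these bases. Peaks of Lig1, Mcm2, Mcm6, Parp1, Pcna, Trp53bp1 and Fanca also covered some of the first 50 bases, with no pentamer in the covered part. Among them, the Dox peak of Fanca had no counterpart. The Dox peak at the start of Cdc6 covered 1 pentamer. Of the same windows of all protein-coding genes, 50.5% hold at least 1 in the full 50 bases. A match is thus common, and it marks letters and not a methylated site. Under peaks only the covered bases were counted, 31 of them in Mcm5, so the shares are not of like measure.

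Letters bound by E2F factors were searched in the promoter windows, a feature the choice of genes did not use. The E2F factors, which drive genes of the S phase, bind sequences such as TTTCCCGC, TTTCGCGC, TTTGCCGC and TTTGGCGC. These letters were searched on both strands, overlapping matches included, in RefSeq windows from 250 bases before to 50 after the gene start. Of the 38 genes with a window, 11 held a match (28.9%): Brca2, Cdc6, Chek2, Lig1, Mcm3, Mcm5, Mcm6, Mcm7, Mdc1, Rfc3 and Xrcc6. Among the other replication and repair genes it was 20 of 118 (16.9%) and among all protein-coding genes 575 of 17491 (3.29%). At least 2 matches were found for 5 of the 38 genes (13.2%), beside 0.847% of the other replication and repair genes and 0.154% of all protein-coding genes. The upstream stretches of Mcm5 (chr8:75109336-75109387, plus strand), Mcm6 (chr1:128359725-128359835, minus strand) and Mcm7 (chr5:138172021-138172068, minus strand) are printed as examples of the matches, with the matched letters in capitals.
Mcm5: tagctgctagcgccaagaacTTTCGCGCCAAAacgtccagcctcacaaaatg
Mcm6: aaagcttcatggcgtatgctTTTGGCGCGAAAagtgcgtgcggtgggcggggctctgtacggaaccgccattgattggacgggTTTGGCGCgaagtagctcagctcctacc
Mcm7: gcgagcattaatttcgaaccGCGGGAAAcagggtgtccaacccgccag
In Mcm5 and in the first run of Mcm6, matches on the 2 strands overlap. These letters are a description of the windows, and binding was not analysed here.

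**Figure D3:**
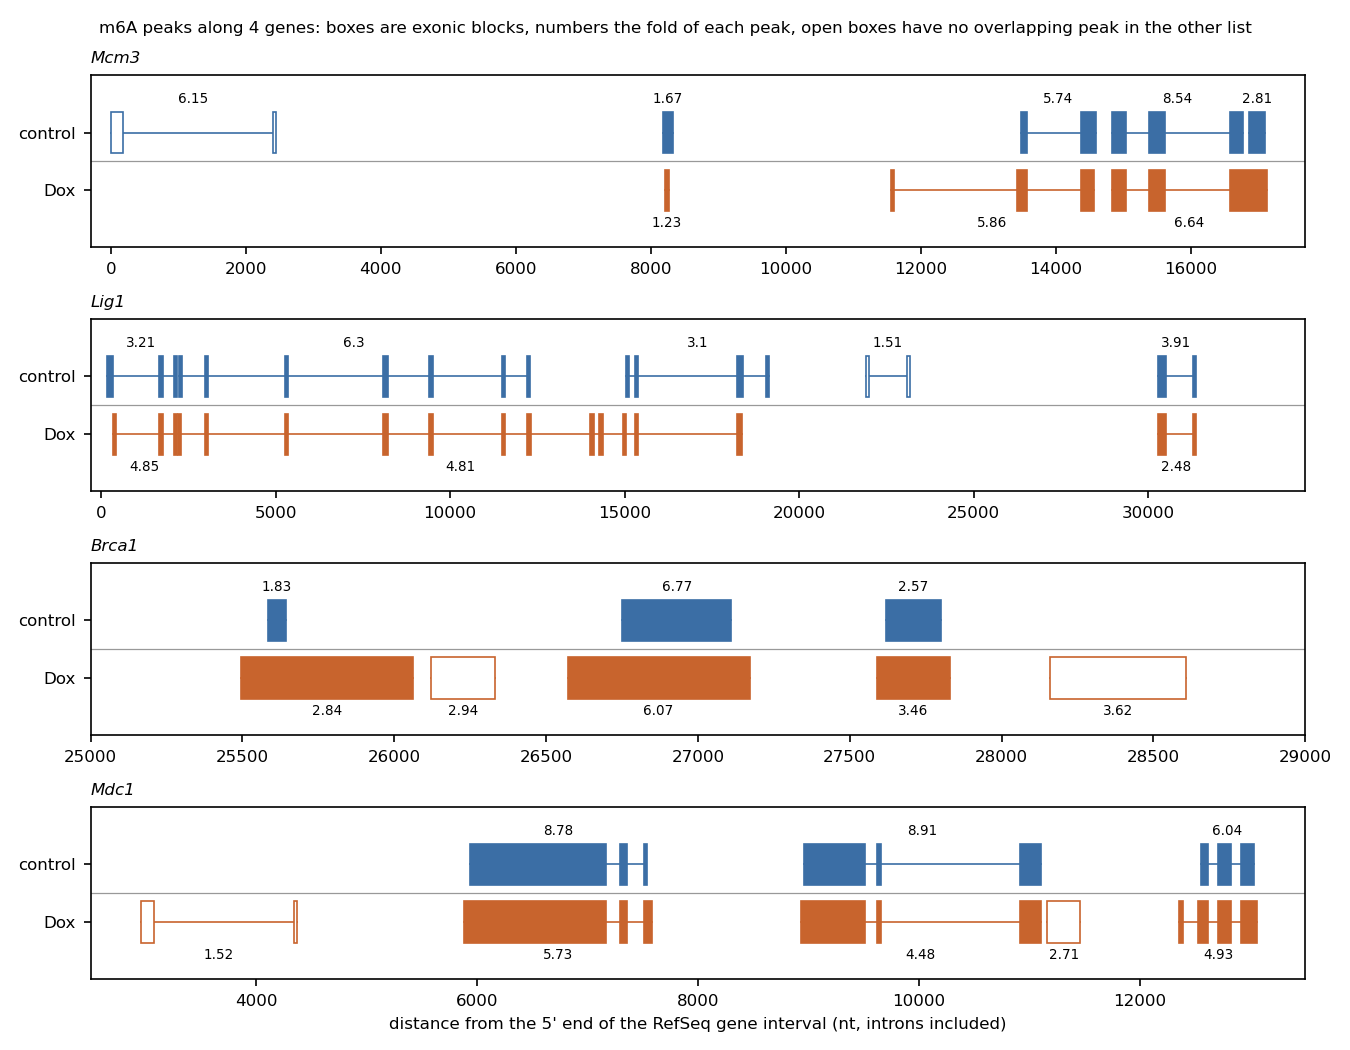
Peaks along Mcm3, Lig1, Brca1 and Mdc1, with the distance in nt from the 5′ end of the gene on the horizontal axis, introns included; Brca1 and Mdc1 are drawn in part. Control peaks are above the line and Dox peaks under it; filled boxes are exonic blocks of peaks with a counterpart, open boxes those of peaks without one, as at the 5′ end of Mcm3.

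PCNA is the ring that holds polymerases on DNA, the RFC complex loads it, RPA coats single-stranded DNA and LIG1 joins Okazaki fragments. The 8 genes of this group with peaks held 20 control and 18 Dox peaks, and no gene had more in Dox. Without a counterpart were 2 control peaks (10.0%, 1.23% to 31.7%) and 2 Dox peaks (11.1%, 1.38% to 34.7%), beside 19.3% and 29.1% of all. Pcna (chr2:132249286-132253180, minus strand) had 1 peak over its 5′ end in each list, with a control fold of 13.5 (log10 FDR -22.8) and a Dox fold of 4.7 (-13.1). The highest Dox fold of the group, 15.2, belonged to a weak peak of Rpa2 without a counterpart (log10 FDR -2.86). That pair of values was stored for 92 Dox peaks of the whole list, so it is a coarse value. A control peak of Rpa2 with a fold of 5.23 (log10 FDR -2.42) also had no counterpart and ended 29 nt from it. The other Rpa2 peak had folds of 2.12 and 2.44.

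Lig1 (plus strand, chr7:13277175-13311426) showed the longest chain of blocks. A Dox peak of 12 exonic blocks with a fold of 4.81 covered parts of 2 control peaks of 7 and 4 blocks with folds of 6.3 and 3.1. The first peak of the gene had folds of 3.21 in control and 4.85 in Dox, and the last of 3.91 and 2.48 with the same bounds in both lists. A control peak of 1.51, at chr7:13299087-13300328 and a log10 FDR of -11.6, had no counterpart. In Rfc1 the control folds from the 5′ end on were 2.29, 1.88, 3.49 and 6.72, and the Dox folds 2.54, 2.77, 5.23 and 3.89. The Dox peak of 2.54 (log10 FDR -9.5) had no counterpart, and that of 5.23 overlapped both the 1.88 and the 3.49 control peak. Rfc2 had 2 peaks in each list with highest folds of 11.2 and 6.24, Rfc5 3 with 2.72 and 2.74, and Rpa1 2 with 5.29 and 7.28. Rfc4 had 1 weak peak in each, with folds of 1.59 and 1.66.

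The MRN complex (MRE11, RAD50 and NBN) senses double-strand breaks, and CtIP and EXO1 resect their ends. Among the roles of the 47 genes this one had the largest share of Dox peaks without a counterpart, 8 of 17 (47.1%, 23.0% to 72.2%), an interval that covers the 29.1% of all Dox peaks. Of its 10 control peaks 1 had none (10.0%), beside 19.3% of all control peaks. All 8 of the Dox peaks without a counterpart were weak. Rbbp8, which encodes CtIP, had no control peak and 3 Dox peaks, with folds of 2.66, 3.13 and 3.41 and log10 FDRs of -1.87, -2.21 and -2.13. Exo1 had 3 control peaks with folds of 5.96, 2.56 and 5.74, all with a counterpart. Its 6 Dox peaks had folds of 1.85, 5.19, 2.32, 2.27, 4.34 and 3.93, and the first, the fourth and the fifth stood alone at log10 FDRs of -3.91, -2.72 and -1.85. Rad50 had control folds of 5.8, 7.79, 2.8 and 4.45 from the 5′ end on, and Dox folds of 2.75, 2.55, 3.01, 3.98 and 3.83, the second of them without a counterpart (log10 FDR -2.58). Although its 4 control peaks all had counterparts, 42.1% of their exonic length was shared, the lowest value for a gene with control peaks after the 28.5% of Fanca. Mre11a had a peak of 6 blocks in both lists (4.67 and 3.99) and a weak Dox peak of 1.92. Nbn had a peak in both (6.15 and 5.62), and a weak control peak of 7.38 near its 5′ end without a counterpart. Its log10 FDR was -2.03, and 59 control peaks of the list carry that pair of values.

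BRCA1, BRCA2 and PALB2 act in homologous recombination, RAD54L is a DNA translocase, and BLM and WRN are RecQ helicases. Of the 18 control peaks of these 6 genes 1 had no counterpart (5.56%, 0.141% to 27.3%), beside 19.3% of all control peaks. Of the 26 Dox peaks 9 had none (34.6%, 17.2% to 55.7%), beside 29.1% of all Dox peaks. No gene of the group had fewer peaks in Dox. Brca1 (minus strand, chr11:101488761-101551955) held 2 of the stronger Dox peaks without a counterpart. All 3 of its control peaks and 5 of its 6 Dox peaks lay within 1 run of sequence from chr11:101523348 to chr11:101526461. There the control folds were 1.83, 6.77 and 2.57 from the 5′ side, and the Dox folds 2.84, 2.94, 6.07, 3.46 and 3.62. The Dox peaks of 2.94 (log10 FDR -7.27) and 3.62 (log10 FDR -21.5) had no counterpart, and control peaks lay 418 and 358 nt from them. The sixth Dox peak, of fold 1.88, was weak. In all, 602 nt of Brca1 were covered by control peaks, every one of them also by Dox peaks, which covered 2222 nt.

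Brca2 had the largest number of peaks among the 47 genes. Its 6 control folds were 2.35, 2.3, 3.69, 12.9, 4.29 and 4.29, the last 2 being peaks that overlap each other at the 3′ end. The 8 Dox folds were 2.5, 3.01, 3.69, 4.23, 2.79, 2.13, 4.27 and 4.14. Without a counterpart were the control peak of 2.3 and the Dox peaks of 2.5, 3.69 and 2.13, all weak. Palb2 had 5 control peaks with folds of 5.84, 5.74, 3.5, 13.7 and 4.47 and 6 Dox peaks with folds of 14.1, 17.4, 3.31, 8.07, 3.77 and 4.26. Only the last Dox peak (log10 FDR -6.37) had no counterpart. The folds of 14.1 and 17.4 at the 5′ end belonged to weak, self-overlapping peaks (log10 FDRs of -2.59 and -3.41), and these pairs of values were shared by 119 and 42 Dox peaks of the list. The start of Palb2 inside the outermost peak of each list, chr7:122132897-122132924 on the minus strand, is shown for comparison with Mcm3 and Mcm5, again with the m6A pentamers in capitals.
Palb2: gcgGAACCtgtgtggctcggcagGAACA
Wrn (chr8:33234372-33385543) had a single peak, in the Dox list, of fold 13.0 and log10 FDR -2.32. This pair of values was shared by 115 Dox peaks. Blm and Rad54l were among the genes with higher values in the Dox list: Blm had 3.3 and 2.4 in control and 5.31 and 5.21 in Dox, and Rad54l 2.65 and 2.44 in control and 3.85 and 2.89 in Dox. Blm also had a weak Dox peak of 2.03 without a counterpart.

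ATM and ATR are the kinases that start the damage checkpoint, CHEK1 and CHEK2 carry it on, and MDC1 and the product of Trp53bp1 gather at marked chromatin around breaks. In these 6 genes 1 of 11 control peaks had no counterpart (9.09%, 0.230% to 41.3%), beside 19.3% of all. Of 15 Dox peaks 5 had none (33.3%, 11.8% to 61.6%), beside 29.1% of all. Both mediator genes carried long and strong peaks in both lists, while the 4 kinase genes carried few. Atr (chr9:95857597-95953217) had 1 Dox peak of fold 3.69, weak at a log10 FDR of -1.71, and no control peak. Chek2 (chr5:110839800-110874140) had 1 Dox peak of 3 blocks, fold 1.76 and a log10 FDR of -6.96, and was the only gene found in Dox alone at -5 or less. Atm had a peak in both lists (4.97 and 5.63) and a weak Dox peak of 2.71. Chek1 had a weak peak in both (1.7 and 2.37).

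Mdc1 (plus strand, chr17:35841495-35859670) carried 3 control peaks with folds of 8.78, 8.91 and 6.04, and all had counterparts, of 5.73, 4.48 and 4.93. Their longest block was 1233 nt in control and 1292 nt in Dox. A Dox peak of 2.71 at chr17:35852659-35852958 stood alone with a log10 FDR of -24.6, 59 nt from the control peak of 8.91. A weak Dox peak of 1.52 lay nearer the 5′ end. Trp53bp1 (minus strand, chr2:121194835-121296354) held control folds of 8.86, 10.0, 2.77, 18.8, 5.07 and 4.55 and Dox folds of 2.82, 7.59, 8.46, 5.15 and 4.46. The control peak of 2.77 (log10 FDR -1.46) was the only one without a counterpart. The 18.8 peak had 6 blocks in both lists, differed by 30 nt in length (1169 and 1199 nt) and was strong in both (log10 FDRs of -125 and -99.1).

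The Fanconi anemia proteins act at DNA crosslinks: FANCM finds the stalled fork, FANCA belongs to the core ubiquitin ligase, and FANCD2 and FANCI are its substrates. In the group 3 of 11 control peaks had no counterpart (27.3%, 6.02% to 61.0%), beside 19.3% of all. Of 12 Dox peaks 4 had none (33.3%, 9.92% to 65.1%), beside 29.1% of all. All 3 of the control peaks without a counterpart belonged to Fanca and 3 of the 4 such Dox peaks to Fanci. Fanca (minus strand, chr8:123266294-123318651) had control folds of 2.44, 2.46, 9.02 and 2.23 and Dox folds of 8.13 and 2.65. The peaks of 2.44 and 2.65 overlapped. The control peaks of 2.46, 9.02 and 2.23 had log10 FDRs of -5.48, -4.25 and -5.63, and the Dox peak of 8.13, at the 5′ end, one of -2.82. Fanci (plus strand, chr7:79392312-79450266) had 1 control peak of 3.47, with a counterpart of 2.54. Its other Dox folds were 1.97, 1.99 and 3.62, the latter 2 close to the 3′ end with log10 FDRs of -15.1 and -10.3. Fancm had 5 peaks in each list and all overlapped. Its control folds were 22.9, 4.88, 5.84, 2.63 and 3.19 and its Dox folds 2.57, 3.7, 4.03, 1.93 and 2.84. The first of them, at chr12:65075666-65076055, had log10 FDRs of -41.4 in control and -2.92 in Dox and was 390 nt wide in control and 151 nt in Dox. Fancd2 had 1 peak in each list (5.89 and 3.57).

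XRCC5 and XRCC6 form the Ku ring on broken ends, PRKDC is the kinase it recruits, and LIG4 seals the joint. Every one of the 8 control peaks of these genes had a counterpart (0 of 8 without, upper limit 36.9%), beside 19.3% of all control peaks without one. Of 11 Dox peaks 3 had none (27.3%), beside 29.1% of all Dox peaks. Lig4 had the highest folds: 17.8 and 4.92 in control and 7.86, 3.9 and 14.1 in Dox, from the 3′ side. The Dox peak of 3.9 (log10 FDR -1.91) had no counterpart. That of 14.1 was weak (log10 FDR -2.59), carried 1 of the repeated pairs of values, which 119 Dox peaks share, and overlapped the control peak of 4.92. Xrcc5 had a control peak of 2.17, with a counterpart of 1.71, and Dox peaks of 1.34 and 1.61 without one (log10 FDRs of -4.4 and -6.12). Xrcc6 had control folds of 2.99, 6.61 and 1.98 and Dox folds of 3.07, 2.38 and 2.24, all overlapping. Prkdc had 2 peaks in each list close to its 3′ end, with folds of 2.46 and 5.06 in control and 2.07 and 3.3 in Dox. Prkdc and Mcm4 lie head to head on chromosome 16, with gene starts at 15637444 and 15637400, yet their peaks lay at opposite ends of the genes: that of Mcm4 near the shared start and those of Prkdc near its 3′ end.

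PARP1 senses single-strand breaks, XRCC1 is the scaffold of their repair and LIG3 its ligase. Of the 9 control peaks of all 47 genes with an FDR stored as 0, Parp1 and Xrcc1 held 5, and each had a counterpart. Of 13 control peaks 1 had no counterpart (7.69%, 0.195% to 36.0%), beside 19.3% of all. Of 14 Dox peaks 2 had none (14.3%, 1.78% to 42.8%), beside 29.1% of all. Parp1 had 5 control folds of 5.82, 7.11, 9.59, 4.93 and 2.73, the first 4 with an FDR stored as 0. Their counterparts had folds of 4.34, 3.55, 4.35, 3.31 and 2.01. The first Parp1 peak, of 8 blocks and 1137 nt, and the third, of 2 blocks and 270 nt, had the same bounds in both lists. A weak Dox peak of 1.2 stood alone, 39 nt from the hairpin of Mir6904, a microRNA that RefSeq places within Parp1. Xrcc1 had control folds of 1.41, 2.9, 4.37, 15.3 and 1.88, the first weak and without a counterpart, and Dox folds of 2.2, 2.97, 6.25 and 2.43. The 15.3 peak, of 5 blocks and 719 nt, had an FDR stored as 0 and the same bounds in both lists. Lig3 had control folds of 3.5, 2.3 and 3.18 and Dox folds of 5.37, 2.18, 2.58 and 2.96, the last without a counterpart (log10 FDR -7.22).

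ERCC2 is a helicase of the TFIIH complex, ERCC5 an endonuclease and ERCC6 the factor that couples excision repair to transcription. All 10 Dox peaks of these genes had a counterpart (0 of 10 without, upper limit 30.8%), beside 29.1% of all Dox peaks without one. Of the 11 control peaks 2 had none (18.2%), beside 19.3% of all control peaks. Ercc6 (plus strand, chr14:32513291-32580990) held the highest control fold of the 47 genes. Its control folds were 25.5, 3.94, 19.2 and 10.3, and the second, weak, had no counterpart. Its Dox folds were 5.06, 4.82 and 5.42. The log10 FDRs of the 3 paired peaks were -39.6, -19.9 and -19.5 in control and -5.8, -5.1 and -7.5 in Dox. Their widths were 420, 600 and 390 nt in control and 420, 600 and 420 nt in Dox. Ercc2 had control folds of 5.04, 2.37, 1.82 and 10.9 and Dox folds of 3.1, 1.8, 1.47 and 7.51. The control peak of 2.37 (log10 FDR -5.02) had no counterpart. Ercc5 had control folds of 11.4, 2.87 and 2.25 and Dox folds of 5.97, 2.8 and 3.37, all overlapping.

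**Figure D4:**
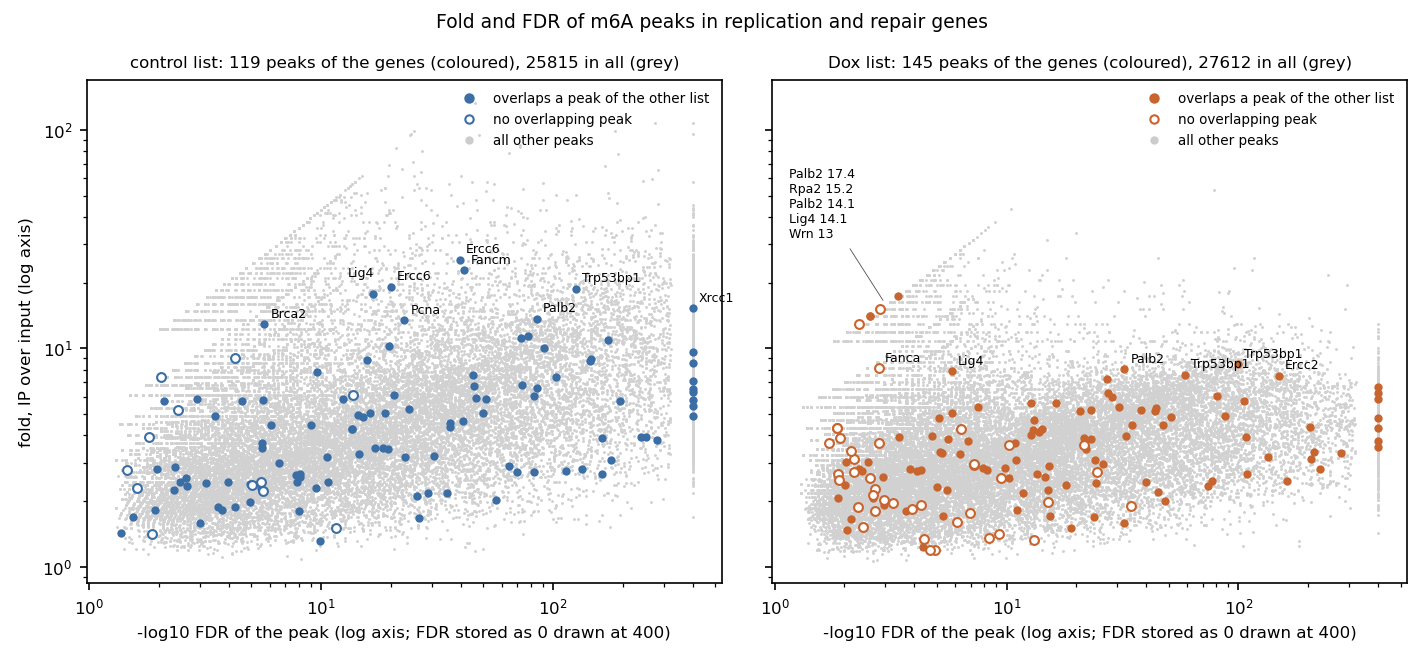
Fold of IP over input against -log10 FDR, both on log axes, for every peak of the replication and repair genes (coloured; open where no peak of the other list overlaps) and of each list (grey). The 5 labelled Dox peaks with folds of 13.0 to 17.4 lie on the lines of repeated values at weak FDRs, while most control peaks of high fold lie further right.

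Within each list the peaks of these genes had lower folds and stronger FDRs than the list as a whole. The median fold was 3.95 in control, where the whole list had 4.62, and 3.10 in Dox, where it had 3.51. The median log10 FDR was -16.7 in control beside -8.75 for all peaks, and -10.9 in Dox beside -6.41. Peaks at -5 or less made up 76.5% of those in control (67.8% to 83.8%) and 67.6% of those in Dox (59.3% to 75.1%), beside 64.3% and 56.9% of all. The FDR was stored as 0 for those 9 control peaks, in 5 genes, and for 7 Dox peaks in 5 genes. Peaks in these genes were also more numerous, at 2.83 per gene with peaks in control and 3.15 in Dox beside 2.22 and 2.31. A single exonic block was found for 45.4% of their control and 40.7% of their Dox peaks, beside 58.8% and 57.3%. A peak call needs reads of the transcript, so these values may depend on transcript level, which was not analysed and whose part in them was not tested. In bulk RNA, fewer cells with a transcript and less of it per cell cannot be told apart.

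Peaks of the Dox list were mostly wider than the control peaks they overlapped. In 96 pairs of 1 control and 1 Dox peak, from 42 genes, the Dox peak was wider in 67 (69.8%, 59.6% to 78.7%), narrower in 17 and of the same width in 12. Among all 16357 such pairs it was wider in 56.8%. The median exonic width in these pairs was 256 nt in control and 316 nt in Dox, beside 241 and 296 nt for all pairs. The pairs with the largest excess of Dox width were in Brca1, with 61 and 569 nt, and Cdc6, with 60 and 449 nt, and in both the control peak was weak. The largest difference the other way was in Fancm, with 390 nt in control and 151 nt in Dox. The lower of the paired folds was in the Dox list in 66 of the 96 pairs (68.8%, 58.5% to 77.8%), beside 65.9% of all pairs. Bounds were identical in 9 pairs (9.38%, beside 10.2% of all pairs), which belonged to Mcm2, Parp1, Rfc2, Lig1, Rad54l, Xrcc1 and Ercc6. Peaks that overlapped at least 2 peaks of the other list numbered 7 in Dox (4.83%, beside 8.18% of all Dox peaks), in Brca2, Lig1, Mcm3, Palb2 and Rfc1, and 5 in control (4.20%, beside 4.93%), in Brca2, Ercc2 and Palb2. Those of Brca2 and Palb2 include calls that overlap another peak of their own list, of which each list held 4.

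**Figure D5:**
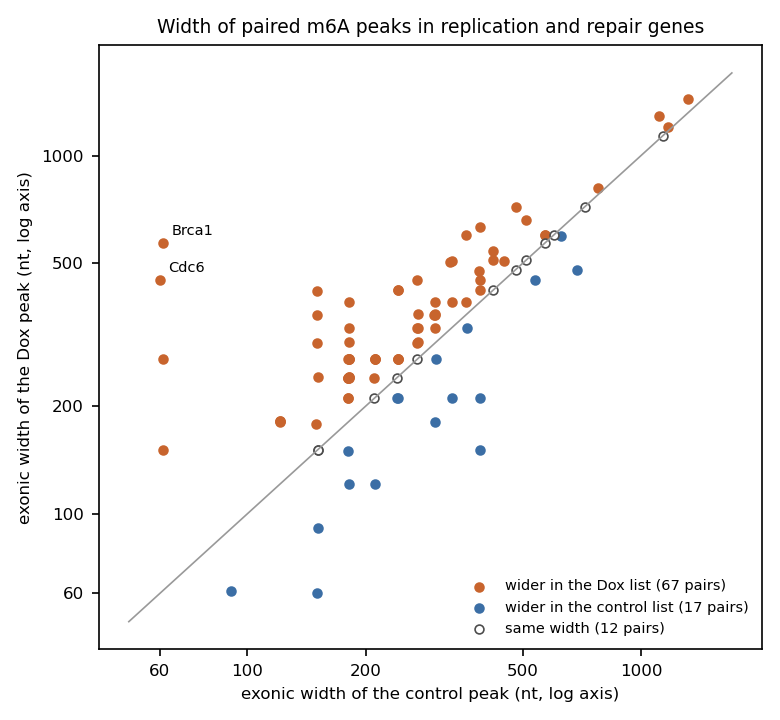
Exonic width in nt of the control peak (horizontal, log axis) and the Dox peak (vertical, log axis) in 96 pairs of overlapping peaks of the replication and repair genes; the line marks equal width. More points lie above the line (67, wider in Dox) than under it (17), with the Brca1 and Cdc6 pairs farthest from it.

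Along the gene, peaks were placed by the midpoint of their exonic length in RefSeq gene intervals of at least 3000 nt. Within 500 nt of the 5′ end lay 12 of 118 peaks in control (10.2%, 5.37% to 17.1%) and 10 of 144 in Dox (6.94%, 3.38% to 12.4%), beside 13.0% and 7.70% of all placed peaks. Within 1000 nt of the 3′ end lay 12 control peaks (10.2%) and 16 Dox peaks (11.1%), beside 13.7% and 15.2%. Most lay between the ends. Distances were genomic, introns included, and were taken from the outer edge of the interval. A control peak over a RefSeq gene start could thus be placed between the ends, as in Lig1, Mcm2, Mcm5, Parp1 and Trp53bp1. Of the 12 control peaks at 5′ ends 2 had no counterpart (16.7%, 2.09% to 48.4%), those of Mcm3 and Nbn. Over all control peaks at 5′ ends the share was 38.5%, which the wide interval covers. The other 10 were those of Mcm4, Mcm6, Cdc6, Pcna, Rfc2, Rfc4, Rpa1, Rad50 and, with 2, Palb2. All 12 control peaks at 3′ ends had a counterpart (0 of 12, upper limit 26.5%), where 11.2% of all control peaks at 3′ ends had none. In Dox 1 of the 10 peaks at 5′ ends had no counterpart (10.0%), that of Fanca, where the share was 14.4% over the list. Between the ends it was 36 of 118 (30.5%), beside 30.2% of all, and at 3′ ends 3 of 16 (18.8%, 4.05% to 45.6%), beside 31.2%.

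The 40 Dox peaks without a counterpart lay in 25 genes. A control peak lay within 500 nt of 9 of them, 26 were weak and 16 had a fold under 2. Of all 8024 Dox peaks without a counterpart, 6196 were weak. The counts by distance and by fold were not taken over the whole list. The 14 at a log10 FDR of -5 or less lay in Mcm5, Mcm6, Rfc1, Brca1, Palb2, Chek2, Mdc1, Fanci, Xrcc5 and Lig3. The 12 control peaks without a counterpart lay in 10 genes, and the 5 at -5 or less belonged to Mcm3, Lig1, Fanca and Ercc2. No gene was on both of these lists, but both are short and no such share was taken over all identifiers, so nothing is read from it.

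Other replication and repair genes were examined as a list of 150, from origin recognition to translesion synthesis. Peaks were found in control for 128, in Dox for 134 and in both for 125. In control 45 of 304 peaks had no counterpart (14.8%, 11.0% to 19.3%) and in Dox 99 of 335 (29.6%, 24.7% to 34.8%), so this wider list lay between the 47 genes and all peaks in control and close to both in Dox. Control peaks alone were found for 3 of the 128 with a control peak, beside 10.0% over all identifiers with one. Of these Uvssa, which acts in transcription-coupled repair, passed a log10 FDR of -5, with 1 peak of fold 25.8 at -5.52. Dox peaks alone were found for 9 of the 134 with a Dox peak, beside 12.2% over all identifiers with one. Among these 9, that limit was passed by Ddb1, a subunit of the damage-binding complex (fold 1.31, -16.3), Ercc8, another transcription-coupled repair gene (2.37, -5.98), and the glycosylase gene Neil2 (2.78, -5.06). The most peaks were found for the nuclease scaffold gene Slx4 and the topoisomerase gene Top2a, each with 7 in control and 6 in Dox, followed by the polymerase gene Pole with 5 and 6, the origin firing gene Ticrr with 4 and 6, and the fork gene Timeless with 5 and 5. All control peaks of these 5 genes had counterparts, while 4 of the 6 Ticrr peaks in Dox had none. The 7 mismatch repair genes held 13 control peaks, 3 without a counterpart (23.1%), beside 19.3% of all control peaks. Of their 19 Dox peaks 10 had none (52.6%, 28.9% to 75.6%), an interval that covers the 29.1% of all Dox peaks.

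In the whole series the lists held 25815 control and 27612 Dox peaks. Setd2, the targeted gene, had 10 control peaks (5 without a counterpart) and 6 Dox peaks (1 without), which does not measure its transcript level. Embryonic stem cell markers had peaks in both lists for 8 of 8 genes. Of 6 fibroblast markers Col1a1 and Vim had peaks and Col1a2, Col3a1, Thy1 and Pdgfra none, and of 4 primitive endoderm markers Gata4 had 1, in control alone. The absence of a peak does not show that a gene is off.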

How the data were processed

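Libraries were made with a stranded mRNA kit from sonicated mRNA, with or without pull-down by an m6A antibody, per the labels' protocols. Per the submitters' processing notes, FastQC 0.11.5, TopHat2 2.1.1 and mm10 were used. The file names point to exomePeak, with settings, annotation and scaling of folds not given in the sources used here. Deposited were, from the authors and per the file headers, a p-value for each peak, the log10 of that p-value and of its FDR, and the ratio (fold enrichment) of IP over input. Each table pools the replicates of a condition. Each condition also has a shorter list by the authors, whose peaks have p-values up to 1e-05 and folds of at least 2.

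Identifiers were matched to RefSeq gene intervals (GRCm38.p6) by peak midpoint and strand. All 46 genes with peaks matched 1 identifier, and 137 of 150 in the wider list. The strand came from RefSeq for 38 of the 47 genes and otherwise from the peaks. Overlap meant 1 shared exonic nt. No difference was tested. Values of every peak are given for genes with peaks in 1 list only, for genes with a peak of log10 FDR -5 or less without counterpart, and in each role for the genes with most peaks and the highest fold; genes of the wider list are named for peaks of -5 or less in 1 list only, or as the 5 with most peaks. The genes, lists and rules were chosen with earlier results of these data known. Alternatives were the stricter lists, limits on FDR and fold, other overlaps, windows and gene matching. Python 3.11.15, numpy 2.4.6, pandas 2.3.3, scipy 1.17.1 and matplotlib 3.10.9 were used. On simulated data of 300 peaks per list, overlap calls made 0 errors. Sequences are from RefSeq.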

Additional observations from a re-analysis of the deposited data

How the results depend on the processing

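No test was run, so no result has a threshold to cross. The share of control peaks without a counterpart in the 47 genes (10.1%) lay between 5.49% and 16.7% under all alternatives but 1, a fold of at least 4 in both lists, where it was 44.1% and thus above the Dox share of 26.7%. The Dox share (27.6%) was 16.1% in the authors' stricter lists and 14.3% at a log10 FDR of -5 or less with the control list in full, and otherwise between 21.4% and 30.3%. In the stricter lists the control and Dox shares were thus alike (16.7% and 16.1%), unlike in the full tables. At a fold of at least 4, 30 genes had control peaks, 27 had Dox peaks and 23 had peaks in both lists. Peaks in control only were then found for 7 genes and in Dox only for 4. In the stricter lists 1 gene (Xrcc5) had peaks in control only and 1 (Cdc6) in Dox only, and at -5 or less 1 (Chek2) in Dox only. Of the 150 other genes, 92 had control peaks, 74 Dox peaks and 64 peaks in both at a fold of at least 4. Control-only genes among the 150 numbered 16 in the stricter lists, 17 at -5 or less and 28 with folds limited to 4 or more. Dox-only genes numbered 8, 8 and 10 under the same limits. Shares over all identifiers were taken for the full tables alone. The counts of single-list genes under these limits are therefore not read as a trait of the 47 or the 150 genes. Taking every peak inside a gene's interval changed none of the counts of the 47 genes with peaks per list, and the 5′ end shares moved by less than their intervals. No paired analysis was possible because the tables hold no value per library, and leaving out a replicate could not be run for the same reason. Depth is unknown in each condition, and its part in the calls was not tested.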
